A study of Mus musculus with 30 samples.

Results

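The Bcl2 family genes described here are 10 genes named by symbol: the anti-death members Bcl2, Bcl2l1 (the gene of Bcl-xL) and Mcl1, the effectors Bax and Bak1, and the BH3-only members Bad, Bid, Bcl2l11 (Bim), Bbc3 (Puma) and Pmaip1 (Noxa). Each symbol matched 1 Ensembl gene in both count tables, so all 10 were found among 52630 genes of a time course and among 55487 genes of a passage experiment. RNA-seq libraries were made from E14tg2a, a line of mouse embryonic stem cells (ESCs), with 3 libraries in each of 10 groups. In the time course, Serum/LIF cells labelled 0 h were compared with cells collected 3 h, 9 h or 24 h after a change to Enhanced Metabolic Media (EMM). The treatment protocol of these libraries speaks of 24 h in Serum/LIF instead of 0 h, so the time point of the reference is uncertain. In the passage experiment, the 3 media Serum/LIF, 2i/LIF and EMM were each used over 10 or 20 passages (P10 and P20). EMM is the Serum/LIF medium with galactose in place of glucose and pyruvate. The medium 2i/LIF holds inhibitors of the kinases GSK3 and MEK with LIF, the cytokine that all the media contain. The study counts 2i/LIF among defined conditions, apart from media with serum. Between 2i/LIF and the other media, effects of the inhibitors therefore cannot be told apart from those of serum and base medium. Every library came from this 1 wild-type line, so no result speaks of other lines.

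Proteins of this family decide whether the outer membrane of mitochondria is opened, the step that commits many cells to apoptosis. Bax and Bak1 form the pores, Bcl2, Bcl-xL and Mcl1 hold them in check, and BH3-only proteins, made or activated under stress, bind the guardians or trigger the effectors directly. Embryonic stem cells are known for dying readily after DNA damage, and p53, FOXO factors and growth factor signalling are known regulators of BH3-only genes. The proteins are also controlled after translation, Mcl1 and Noxa by fast turnover and Bad and Bim by phosphorylation, so RNA levels give only one layer of the balance. In bulk libraries, fewer cells that express a gene and less RNA per cell cannot be told apart.

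Bcl2l11 and Bbc3 are the members whose transcription FOXO factors are best known to drive, and their promoters are shown because both genes were lower in EMM at several times. RefSeq promoter windows of the GRCm38.p6 build, running from 250 bases before to 50 bases after a transcript start, were given for 15 starts of 9 of the 10 genes, all but Pmaip1. The FOXO core GTAAACA, searched on both strands, stood in 2 of these 15 windows and in 3.65% of all 32851 windows. The 250 bases before each of the 2 starts are printed 5′ to 3′ on the strand of the gene, the plus strand in both cases, with the match in capitals.
Bcl2l11, chr2:128125788-128126037: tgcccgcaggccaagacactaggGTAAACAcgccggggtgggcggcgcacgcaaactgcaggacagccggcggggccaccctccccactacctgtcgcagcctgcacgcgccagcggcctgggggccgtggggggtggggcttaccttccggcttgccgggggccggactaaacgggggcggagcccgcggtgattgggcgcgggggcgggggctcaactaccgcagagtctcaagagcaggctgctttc
Bbc3, chr7:16310011-16310260: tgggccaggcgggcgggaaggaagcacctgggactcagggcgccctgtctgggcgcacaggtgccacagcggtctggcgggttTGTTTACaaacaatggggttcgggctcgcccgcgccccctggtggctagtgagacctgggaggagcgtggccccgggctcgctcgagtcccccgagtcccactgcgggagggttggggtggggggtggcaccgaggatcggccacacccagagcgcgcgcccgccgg
The match began 227 bases before the start in Bcl2l11 and 167 bases before it in Bbc3, where it reads as the reverse complement. The Bbc3 window lies inside the gene as GENCODE draws it, since a longer transcript begins upstream. Of the other motifs searched on both strands, the E-box CACGTG was found in 2 of the 15 windows and in 7.15% of all windows, the GC box GGGCGG in 10 and in 35.7%, and the p53 half-site consensus in 1, that of Bax, and in 8.36%. The cyclic AMP element TGACGTCA was found in 0 of the 15 and in 1.79% of all windows. A match is a string of letters and no evidence of binding.

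Total counts ran from 24074132 to 35301962 in the time course and from 6944904 to 27912928 in the passage experiment. P10 EMM replicate 3 and P20 2i/LIF replicate 1 stood apart in the passage experiment. They had the lowest totals, and CT010467.1, annotated as ribosomal RNA, took 1.54% and 3.95% of their counts against 0.513% to 0.986% in the other 16 libraries. ESC markers, 7 genes such as Pou5f1 and Nanog, summed to between 4292 and 7809 CPM (counts scaled to a library total of 1000000) in every library of the passage experiment and to between 5172 and 5478 in the time course. Markers of feeder or other fibroblasts, 6 genes, summed to 144 to 171 CPM in P10 Serum/LIF and 230 to 456 in P20 Serum/LIF, against 2.89 to 23.3 in the EMM and 2i/LIF groups. Trophectoderm markers, also 6 genes, summed to 238 to 479 in the Serum/LIF groups of the passage experiment against 48.7 to 159 in the others. Neural markers, 4 genes, summed to 115 to 132 in P10 Serum/LIF and to 18.9 to 82.5 in the other 5 groups. The 7 primitive endoderm markers summed to 5.12 to 22.2 and the 5 of primitive streak and mesoderm to 8.66 to 65.5. In the time course, trophectoderm markers summed to 127 to 135 in Serum/LIF and 203 to 205 at 24 h. Primitive endoderm markers summed to 14.01 to 15.16 and 25.3 to 25.9 in the same groups, and fibroblast markers to 61.2 to 64.3 and 42.9 to 50.1. Neural markers were highest at 3 h (96.2 to 107, against 57.4 to 70.6 in Serum/LIF), and those of primitive streak and mesoderm lay between 19.1 and 27.6 throughout. Differences from Serum/LIF in both experiments thus run along with marker levels, and the part of other cells in them was not tested.

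All 10 members passed the filter on low counts in both experiments, among 16049 genes of the time course and 16054 genes of the passage experiment. Differences were tested with the quasi-likelihood test of edgeR, with Benjamini-Hochberg adjustment over all genes tested, and were called at an adjusted p under 0.01. Normalized counts are counts scaled to a common library size within an experiment, so they compare libraries but not genes. For a comparison of genes, levels were expressed as CPM divided by kilobases of exon. On that scale in Serum/LIF of the time course, Mcl1 was the most abundant member at 198 ± 8.31 (SD, n = 3), followed by Bax at 127 ± 10.1. Bbc3 (30.9 ± 1.44), Bak1 (24.6 ± 1.90), Pmaip1 (21.5 ± 0.763), Bid (17.5 ± 0.185) and Bcl2l1 (15.1 ± 0.513) formed a middle group. Exon length was taken over all transcripts of a gene, which for Bcl2l1 gives 4586 bases against 2568 in its longest transcript. The order within the middle group depends on this choice. Bcl2l11 stood at 7.32 ± 0.347 and Bad at 4.01 ± 0.151. Bcl2, the member that gave the family its name, was the least abundant at 0.253 ± 0.00644. Bcl2 was last in all 10 groups, and Mcl1 and Bax held the first 2 places in all of them, in changing order in the passage experiment, where Bax varied widely between replicates. In P10 EMM, Bax was at 189 ± 47.5 and Mcl1 at 156 ± 2.72, so that these neighbours did not differ beyond their spread. The span between the highest and lowest group mean of log2 CPM, taken within both experiments, was widest for Pmaip1 at 3.92, Bcl2 at 3.54 and Bcl2l11 at 2.96, and narrowest for Bax at 0.61.

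The time course asks how the family responded within a day of the switch to EMM. All its Serum/LIF libraries carry the 0 h label, with none labelled 3 h, 9 h or 24 h. EMM thus cannot be told apart from fresh medium, handling or time in culture. Between Serum/LIF and EMM 24 h, the anti-death genes Bcl2 and Bcl2l1 rose, Mcl1 did not pass the test, and 3 of the 5 BH3-only genes fell, Bbc3 most. After 3 h, 3 members were called higher and 4 lower, which is 30% and 40% of the 10, against 16.3% and 18.2% of all genes tested. At 9 h the counts were again 3 and 4, against 18.5% and 19.7% of all genes. At 24 h they were 3 and 3, against 21.8% and 22.2%. The 3 comparisons share the Serum/LIF libraries and are not independent of each other.

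Among the anti-death genes, Bcl2l1 responded first. Its normalized counts were 2120, 1986 and 2022 in Serum/LIF, 3159, 3271 and 3186 at 3 h, 2778, 2729 and 2556 at 9 h, and 3475, 3433 and 3503 at 24 h. All EMM libraries lay above all Serum/LIF libraries, with a dip at 9 h. The log2 fold change against Serum/LIF was 0.65 ± 0.04 (SE) at 3 h (adjusted p = 7.85e-09), 0.40 ± 0.04 at 9 h (adjusted p = 1.15e-06) and 0.76 ± 0.04 at 24 h (adjusted p = 7.57e-10). The dip and the later rise passed the test as well, with Bcl2l1 at -0.25 ± 0.04 from 3 h to 9 h and 0.37 ± 0.04 from 9 h to 24 h (adjusted p = 1.25e-04 and 1.36e-05).

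Bcl2 rose later and further. Its normalized counts were 66.6, 70.1 and 68.3 in Serum/LIF, 72.0, 70.2 and 72.5 at 3 h, 122, 98.6 and 121 at 9 h, and 174, 165 and 152 at 24 h. The 3 h libraries lay barely above those of Serum/LIF, and the 9 h and 24 h libraries well above them. Against Serum/LIF the log2 fold change was 0.07 ± 0.12 at 3 h (adjusted p = 0.736), 0.73 ± 0.11 at 9 h (adjusted p = 7.84e-05) and 1.26 ± 0.11 at 24 h (adjusted p = 1.66e-07), a 2.39-fold rise of a scarce transcript. Each later step was called, with Bcl2 at 0.67 ± 0.11 from 3 h to 9 h and 0.53 ± 0.10 from 9 h to 24 h. The last call was lost when only the groups compared were fitted (0.53, adjusted p = 0.0109). A non-coding gene, D630008O14Rik, runs antisense over 558 bases of Bcl2 exons, and reads of the pair could be told apart only by strand.

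Mcl1, the short-lived guardian with the highest level per length, ranged from 19032 to 20664 in Serum/LIF and from 18083 to 21071 over the 9 EMM libraries. Its log2 fold changes of -0.08, 0.02 and -0.07 at the 3 times did not pass the test, each with an SE of 0.04. With library totals as the only scaling, Mcl1 was called lower at 3 h (-0.15, adjusted p = 0.00915).

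The effectors moved little. Bax was at 6146, 6240 and 5380 in Serum/LIF and at 7458, 7374 and 7115 at 3 h, a log2 fold change of 0.30 ± 0.06 (adjusted p = 7.85e-04). By 24 h it was at 5618, 4904 and 5156, and the step from 9 h to 24 h was called (-0.33 ± 0.06, adjusted p = 0.00121), while that from 3 h to 9 h was not (-0.15 ± 0.06, adjusted p = 0.0570). Against Serum/LIF at 24 h, Bax stood at -0.18 ± 0.06 and missed the threshold (adjusted p = 0.0210), and it passed when Serum/LIF replicate 3 or EMM 24 h replicate 1 was left out (-0.23 and -0.22), with the replicate block (-0.18) and with no filter (-0.15). At 9 h Bax passed with no filter (0.18) and with the block by description number (0.21). Bak1, the second pore former, was called lower at 9 h, at 1556, 1500 and 1440 against 1876, 1764 and 1607 in Serum/LIF (-0.22 ± 0.06, adjusted p = 0.00482). That call was lost when Serum/LIF replicate 1 or 2, or EMM 9 h replicate 2 or 3, was left out (-0.22 to -0.16, adjusted p up to 0.0435), when only the groups compared were fitted (-0.21) and with the block by description number (-0.16). From 3 h to 9 h Bak1 was also called lower (-0.23 ± 0.06), and that call was lost without replicate 2 or 3 of either group (-0.24 to -0.19) and with library totals as the only scaling (-0.19). Bax shares 192 bases of exon on its own strand with Gm45808, so their reads cannot be separated there.

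Of the BH3-only genes, Bbc3, a direct p53 target that binds all the guardians, fell by 3 h and further by 9 h. Its normalized counts were 1967, 2014 and 1839 in Serum/LIF, 1224, 1350 and 1215 at 3 h, 920, 958 and 857 at 9 h, and 774, 856 and 881 at 24 h. No EMM library reached the Serum/LIF range. The log2 fold changes were -0.62 ± 0.06, -1.09 ± 0.06 and -1.21 ± 0.06 at the 3 times, the last a 2.32-fold decrease (adjusted p = 6.99e-10). The step from 3 h to 9 h was called (-0.47 ± 0.06, adjusted p = 3.50e-05), and that from 9 h to 24 h was not (-0.12 ± 0.06, adjusted p = 0.182).

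Pmaip1, whose product Noxa chiefly antagonises Mcl1, followed another course. It was at 1671, 1794 and 1743 in Serum/LIF, 871, 875 and 857 at 3 h, 1025, 1156 and 1087 at 9 h, and 1334, 1413 and 1302 at 24 h. The level was lowest at 3 h and higher at each later time without reaching the Serum/LIF range. Against Serum/LIF the log2 fold change was -1.002 ± 0.052 at 3 h (adjusted p = 1.40e-09), -0.67 ± 0.05 at 9 h (adjusted p = 6.70e-08) and -0.36 ± 0.05 at 24 h (adjusted p = 2.20e-05). Both returns were called, at 0.33 ± 0.05 from 3 h to 9 h and 0.31 ± 0.05 from 9 h to 24 h.

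Bcl2l11, the gene of Bim, which engages every guardian and can trigger Bax, was at 1643, 1769 and 1798 in Serum/LIF and at 1277, 1226 and 1205 after 3 h. At 24 h it was at 1485, 1450 and 1445, still below each Serum/LIF library. Its log2 fold changes were -0.49 ± 0.05, -0.37 ± 0.05 and -0.25 ± 0.05 at the 3 times, all called.

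Bad, a sensor of growth factor and nutrient signalling, was called lower at 3 h. Normalized counts were 314, 305 and 291 in Serum/LIF, 174, 190 and 186 at 3 h and 257, 286 and 292 at 24 h. The log2 fold change at 3 h was -0.72 ± 0.09 (adjusted p = 8.78e-06), and the rise from 3 h to 9 h was called (0.52 ± 0.09, adjusted p = 2.61e-04). At 9 h and 24 h the values of -0.20 ± 0.08 and -0.12 ± 0.08 missed the threshold. Bad shares 524 bases of exon with Gpr137 on the opposite strand, 20.5% of its exon length.

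Bid, which links death receptors to mitochondria once it is cleaved, was the one BH3-only gene that rose, by 0.20, 0.16 and 0.21 on the log2 scale at the 3 times (SE 0.04 each). The call at 9 h was lost without EMM 9 h replicate 2 (0.15, adjusted p = 0.0116). Its levels were 1855, 1824 and 1820 in Serum/LIF and 2152, 2159 and 2030 at 24 h. Bid shares 628 bases of exon with the opposite-strand gene Bcl2l13. From 3 h to 9 h, 3 members were called higher and 3 lower, against 13.7% and 12.9% of all genes. From 9 h to 24 h the counts were 3 and 1, against 7.0% and 6.02%.

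**Figure D1:**
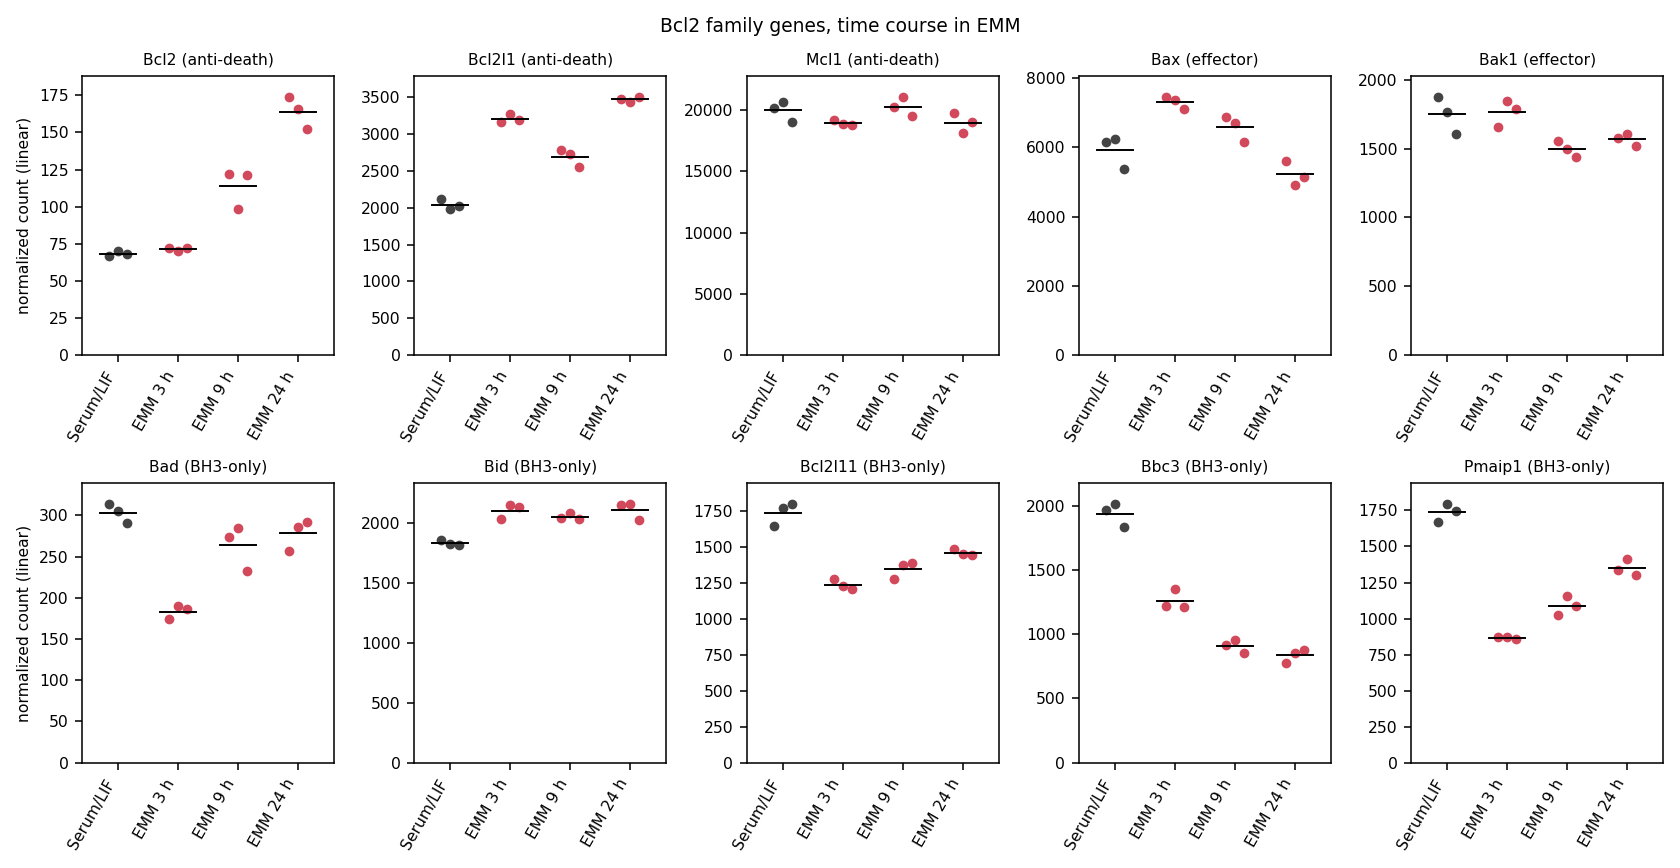
Normalized counts (linear axis from 0) of the 10 members in each of 12 time course libraries, by group; points are libraries and bars are group means. Bcl2 and Bcl2l1 stand higher at 24 h than in Serum/LIF, Bbc3 falls through 9 h, and Pmaip1 is lowest at 3 h.

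The passage experiment asks how the media compare once cells have been kept in them for long. At P10, EMM cells had more Bcl2l1 than Serum/LIF cells and less Bcl2, Bak1, Bcl2l11 and Bbc3. This is 1 member higher and 4 lower, 10% and 40% of the list, against 18.7% of all genes in each direction. At P20 only Mcl1 was higher, and Bak1, Bad and Bbc3 were lower, against 13.6% and 12.5% of all genes. Bak1 and Bbc3 were called lower in EMM at both passages.

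Bcl2l1 at P10 was at 979, 1006 and 928 in Serum/LIF and 1275, 1435 and 1658 in EMM, with no overlap (0.58 ± 0.11, adjusted p = 1.84e-04). At P20 it was at 765, 751 and 715 in Serum/LIF and 646, 736 and 683 in EMM, and the groups overlapped (-0.11 ± 0.11, adjusted p = 0.442). The difference between the 2 passages in the effect of EMM was called (-0.69 ± 0.15, adjusted p = 0.00236).

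Bcl2 was called lower in EMM at P10 and not at P20. Normalized counts at P10 were 47.3, 68.5 and 53.2 in Serum/LIF and 7.23, 18.7 and 6.87 in EMM (-2.38 ± 0.36, adjusted p = 2.44e-05). At P20 they were 27.3, 27.9 and 35.0 in Serum/LIF and 38.1, 39.2 and 43.5 in EMM, which lay higher without passing the test (0.43 ± 0.30, adjusted p = 0.285). The effect of EMM differed between passages by 2.81 ± 0.47 (adjusted p = 2.59e-04). These values rest on few reads, with raw counts of 9, 12 and 3 in P10 EMM against 49, 69 and 46 in P10 Serum/LIF. The time course went the other way at 24 h (1.26), in libraries prepared and counted by another pipeline.

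Mcl1 was at 7770, 7934 and 8774 in P10 Serum/LIF and 8417, 8150 and 8382 in P10 EMM (0.03 ± 0.06, adjusted p = 0.730). At P20 the EMM libraries, at 9530, 9800 and 10032, all exceeded the Serum/LIF libraries at 7984, 7965 and 8130 (0.29 ± 0.06, adjusted p = 0.00101). With library totals as the only scaling the P20 difference missed the threshold (0.19), as it did with no filter on low counts (0.29).

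The pore former Bak1 was lower in EMM at both passages. At P10 it was at 627, 625 and 529 against 915, 830 and 787 in Serum/LIF (-0.50 ± 0.10, adjusted p = 3.44e-04). At P20 it was at 606, 632 and 655 against 1005, 951 and 1066 (-0.67 ± 0.09, adjusted p = 2.31e-05). Exons of Bak1 overlap those of Ggnbp1 on the opposite strand.

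In the edgeR fit of all groups to the filtered genes, Bax was not called in any comparison of the passage experiment. In P10 EMM it was at 3539, 4543 and 5867 against 4210, 3691 and 3682 in Serum/LIF, and in P20 2i/LIF at 5926, 3239 and 3152. The highest value of each group came from the library with the high ribosomal share, P10 EMM replicate 3 and P20 2i/LIF replicate 1. Without both libraries, Bax in P20 EMM against P20 2i/LIF moved from -0.10 to 0.25, and neither value passed the test. At P20 the EMM libraries, at 3666, 3888 and 3857, all lay above Serum/LIF at 3214, 2813 and 2962 (0.34 ± 0.21, adjusted p = 0.203). This difference passed when only the groups compared were fitted (0.34, adjusted p = 4.95e-04) and with no filter on low counts (0.35, adjusted p = 0.00192). Bax in P20 against P10 Serum/LIF (-0.37 ± 0.21) likewise passed in both of those fits (-0.36 and -0.40). With no filter it also passed in P20 2i/LIF against Serum/LIF (0.43), in P10 EMM against 2i/LIF (0.38), and for the change with passage of 2i/LIF against Serum/LIF (0.63) and of EMM against 2i/LIF (-0.47).

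Bbc3 in EMM was at 239, 220 and 250 at P10 against 635, 613 and 555 in Serum/LIF (-1.35 ± 0.12, adjusted p = 3.36e-08). At P20 it was at 300, 283 and 313 against 506, 520 and 397 (-0.67 ± 0.11, adjusted p = 1.23e-04). No library of EMM reached the Serum/LIF range at either passage. The smaller effect at P20 was itself called (0.68 ± 0.16, adjusted p = 0.00443), and this call was lost when any 1 of 7 libraries was left out: P10 EMM replicate 1 or 2, P10 Serum/LIF replicate 1 or 2, P20 EMM replicate 1 or 3, or P20 Serum/LIF replicate 3 (0.57 to 0.69, adjusted p up to 0.0162).

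Bcl2l11 was called lower in EMM at P10. It was at 280, 262 and 218 in P10 EMM against 663, 731 and 842 in Serum/LIF (-1.54 ± 0.15, adjusted p = 1.73e-07). At P20 the values were 607, 622 and 634 in EMM against 695, 784 and 828 in Serum/LIF, apart but short of the threshold (-0.31 ± 0.14, adjusted p = 0.0922), which was passed when only the groups compared were fitted (-0.32, adjusted p = 0.00326). The effect of EMM on Bcl2l11 differed between passages by 1.23 ± 0.21 (adjusted p = 2.57e-04).

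Pmaip1, lowered within 3 h of the switch in the time course, was at 596, 662 and 609 in P10 EMM against 527, 536 and 447 in Serum/LIF (0.31 ± 0.14, adjusted p = 0.0735). At P20 it was at 404, 453 and 486 against 398, 384 and 345 (0.25 ± 0.14, adjusted p = 0.159). EMM libraries were the higher ones at both passages, and neither difference passed the test.

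Bad was called lower in EMM at P20 (-0.65 ± 0.18, adjusted p = 0.00762), with 68.8, 82.8 and 102 against 138, 126 and 136. The call was lost when P20 EMM replicate 1 or 2 or any 1 Serum/LIF library was left out (-0.69 to -0.52, adjusted p up to 0.0451). Bid was at 715, 729 and 765 in P10 EMM against 651, 654 and 609 (0.20 ± 0.09, adjusted p = 0.0632), and at 508, 483 and 430 in P20 EMM against 629, 581 and 526 (-0.29 ± 0.09, adjusted p = 0.0138). The P20 difference in Bid passed without P20 Serum/LIF replicate 3 (-0.35, adjusted p = 0.00873). It also passed with DESeq2 size factors, library totals as the only scaling, the minimum of 10 counts, the replicate block and the Wald test of DESeq2 (-0.38 to -0.29, adjusted p from 0.00252 to 0.00873). Between passages the effect of EMM on Bid differed by -0.50 ± 0.12 (adjusted p = 0.00673). That call was lost on leaving out any 1 of 10 of the 12 libraries, all but P20 EMM replicate 1 and P20 Serum/LIF replicate 3 (-0.53 to -0.43, adjusted p up to 0.0260), and with no filter (-0.42). Over the list, this change of the EMM effect was called for 3 members higher and 2 lower, against 8.28% and 6.43% of all genes.

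**Figure D2:**
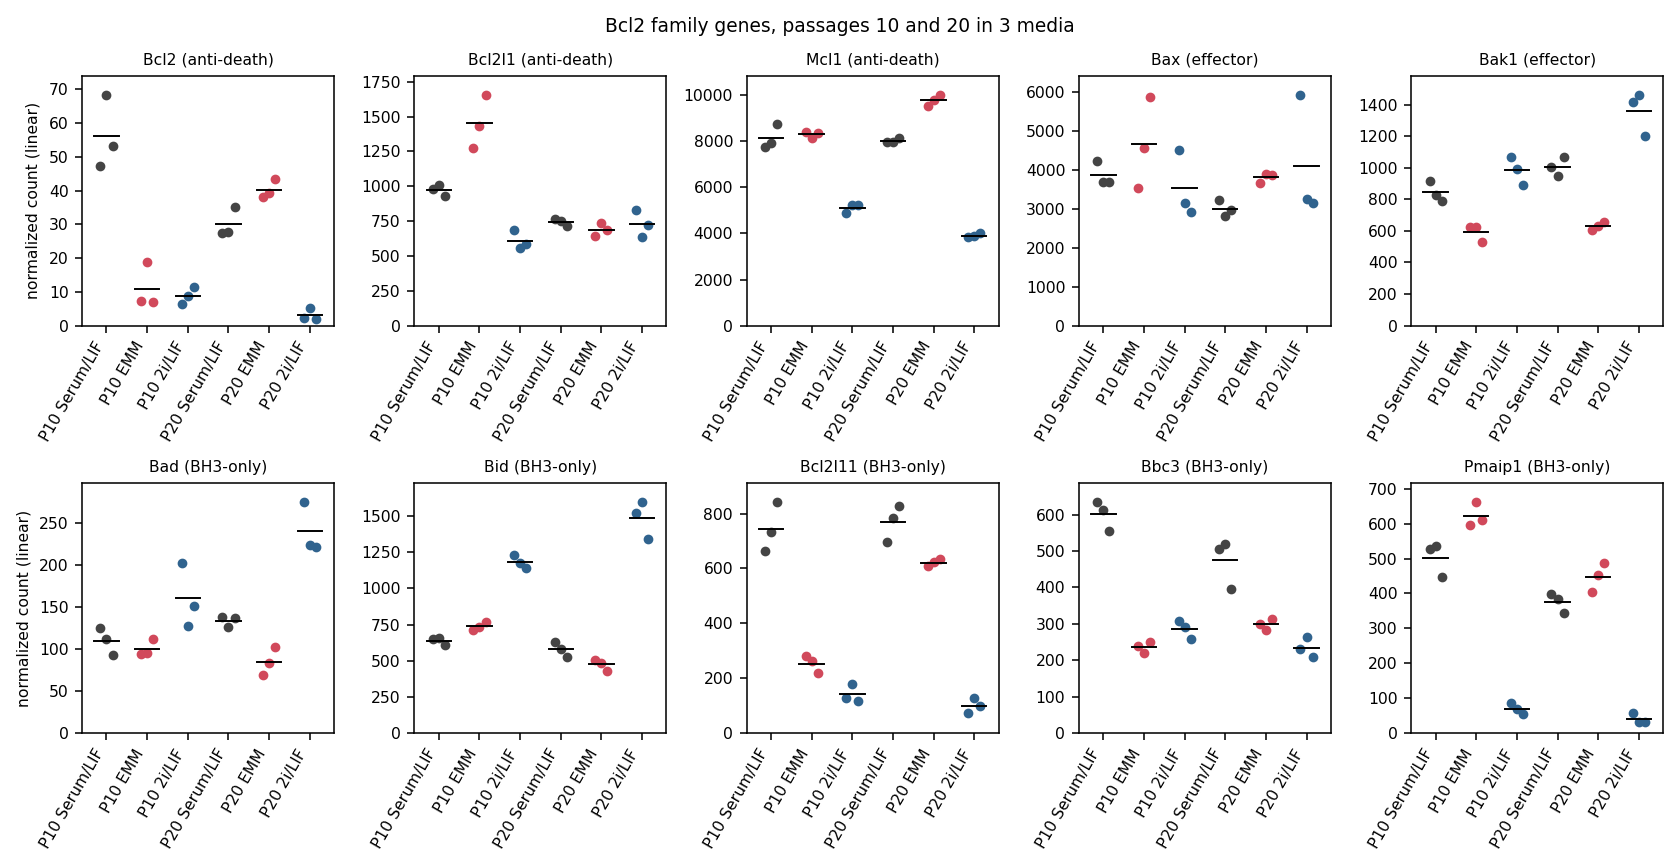
Normalized counts (linear axis from 0) of the 10 members in each of 18 libraries of the passage experiment; points are libraries and bars are group means. Pmaip1 and Bcl2l11 are lowest in 2i/LIF and Bid highest there at both passages, while Bcl2 and Bcl2l11 in EMM stand low at P10 and near Serum/LIF at P20.

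In 2i/LIF the guardians Bcl2 and Mcl1 and the BH3-only genes Bcl2l11, Bbc3 and Pmaip1 were lower than in Serum/LIF at both passages, and Bid was higher. The lower Bbc3 was shared with EMM at both passages, and the lower Bcl2 and Bcl2l11 with EMM at P10. Against Serum/LIF, 1 member was higher and 6 lower at P10, compared with 26.4% and 25.6% of all genes. At P20, 3 were higher and 5 lower, compared with 21.0% and 23.2%.

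Pmaip1 had the lowest log2 fold change of the 10 at both passages, followed by Bcl2, which did not differ from it beyond their errors. It was at 86.3, 68.3 and 55.4 in P10 2i/LIF against 527, 536 and 447 in Serum/LIF, a 7.37-fold decrease (-2.88 ± 0.17, adjusted p = 6.35e-11). In P20 2i/LIF it was at 58.7, 31.0 and 32.6 against 398, 384 and 345, a 10.2-fold decrease (-3.35 ± 0.18, adjusted p = 3.84e-11). Against EMM of the same passage, 2i/LIF had less Pmaip1 by 9.11-fold at P10 and 12.1-fold at P20.

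Bcl2l11 was at 129, 179 and 117 in P10 2i/LIF and 72.8, 126 and 99.6 in P20 2i/LIF, far under the Serum/LIF libraries (-2.41 ± 0.16 and -2.88 ± 0.17, adjusted p = 4.41e-10 and 8.62e-11). MEK and ERK are known to mark Bim protein for degradation, and 2i/LIF holds an inhibitor of MEK, so the RNA is only part of what sets Bim. Egr1, a gene known to respond to ERK, stood at 3691 ± 294 (SD, n = 3) in P10 2i/LIF against 1514 ± 66.4 in P10 Serum/LIF. At P20 it stood at 7.89 ± 5.12 against 393 ± 33.7, and the activity of ERK was not tested. Bbc3 in 2i/LIF was at 308, 292 and 258 at P10 and 230, 262 and 210 at P20, below every Serum/LIF library (-1.08 ± 0.11 and -1.02 ± 0.12).

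Bcl2 in 2i/LIF was at 6.28, 8.71 and 11.4 at P10 and 2.35, 5.17 and 1.92 at P20, where raw counts were only 1, 7 and 2. The log2 fold changes against Serum/LIF were -2.60 ± 0.36 and -3.06 ± 0.43 (adjusted p = 4.88e-06 and 7.21e-06). Mcl1 was at 4891, 5250 and 5241 in P10 2i/LIF and 3825, 3872 and 4020 in P20 2i/LIF, below every Serum/LIF library of its passage (-0.67 ± 0.06 and -1.04 ± 0.06). Bcl2l1 was lower at P10 (-0.68 ± 0.11, adjusted p = 2.88e-05), with 686, 558 and 582, and unresolved at P20 (-0.04 ± 0.11), with 827, 635 and 719.

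Higher in 2i/LIF than in Serum/LIF was Bid, at 1232, 1173 and 1138 at P10 (0.89 ± 0.09, adjusted p = 8.05e-08) and 1518, 1597 and 1339 at P20 (1.36 ± 0.09, adjusted p = 4.26e-10). The other 745 tested genes of chromosome 6, where Bid lies, had a median log2 fold change of 0.33 in P20 2i/LIF against P20 Serum/LIF and of 0.11 at P10, and the part of this shift in the Bid values was not tested. Bad was at 275, 223 and 221 in P20 2i/LIF (0.84 ± 0.17, adjusted p = 4.88e-04), and Bak1 at 1419, 1464 and 1202 (0.43 ± 0.09, adjusted p = 7.14e-04). At P10, Bad (0.54 ± 0.18, adjusted p = 0.0141) and Bak1 (0.22 ± 0.10, adjusted p = 0.0545) missed the threshold. Bad at P10 passed without P10 2i/LIF replicate 2 (0.67, adjusted p = 0.00519), and Bak1 at P20 did not pass with library totals as the only scaling (0.32).

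EMM and 2i/LIF were compared directly as well, with libraries already used above. EMM had 4 members higher and 3 lower at each passage, against 22.9% and 22.2% of all genes at P10 and 25.7% and 22.9% at P20. At both passages Mcl1 (0.70 ± 0.06 and 1.32 ± 0.06), Bcl2l11 (0.87 ± 0.17 and 2.57 ± 0.16) and Pmaip1 (3.19 ± 0.17 and 3.60 ± 0.18) were higher in EMM. Bak1 (-0.72 ± 0.10 and -1.11 ± 0.10), Bad (-0.68 ± 0.19 and -1.48 ± 0.18) and Bid (-0.68 ± 0.09 and -1.65 ± 0.09) were lower in EMM at both. The median over the other tested genes of chromosome 6 was -0.34 at P20, beside the -1.65 of Bid. The P10 call of Bad was lost without P10 2i/LIF replicate 1 or P10 EMM replicate 1 or 2 (-0.65 to -0.49, adjusted p up to 0.0280) and when only the groups compared were fitted (-0.67). Bcl2l1 was higher in EMM at P10 (1.26 ± 0.11), and Bcl2 at P20 (3.49 ± 0.42). Bbc3 missed the threshold at both passages (-0.27 ± 0.12 and 0.35 ± 0.12), and at P20 it passed without P20 2i/LIF replicate 2 (0.45, adjusted p = 0.00704) and under the minimum of 10 counts (0.38). The difference between EMM and 2i/LIF changed with passage for 4 members higher and 2 lower, against 16.9% and 15.4% of all genes. Mcl1 (0.63 ± 0.09) and Bid (-0.97 ± 0.12) were among these, and the same contrast of 2i/LIF with Serum/LIF was called for 2 higher and 1 lower, against 9.16% and 10.9%. Leaving out 1 library left 0 to 3 of these calls, and 0 without P10 2i/LIF replicate 2 or P10 Serum/LIF replicate 2.

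**Figure D3:**
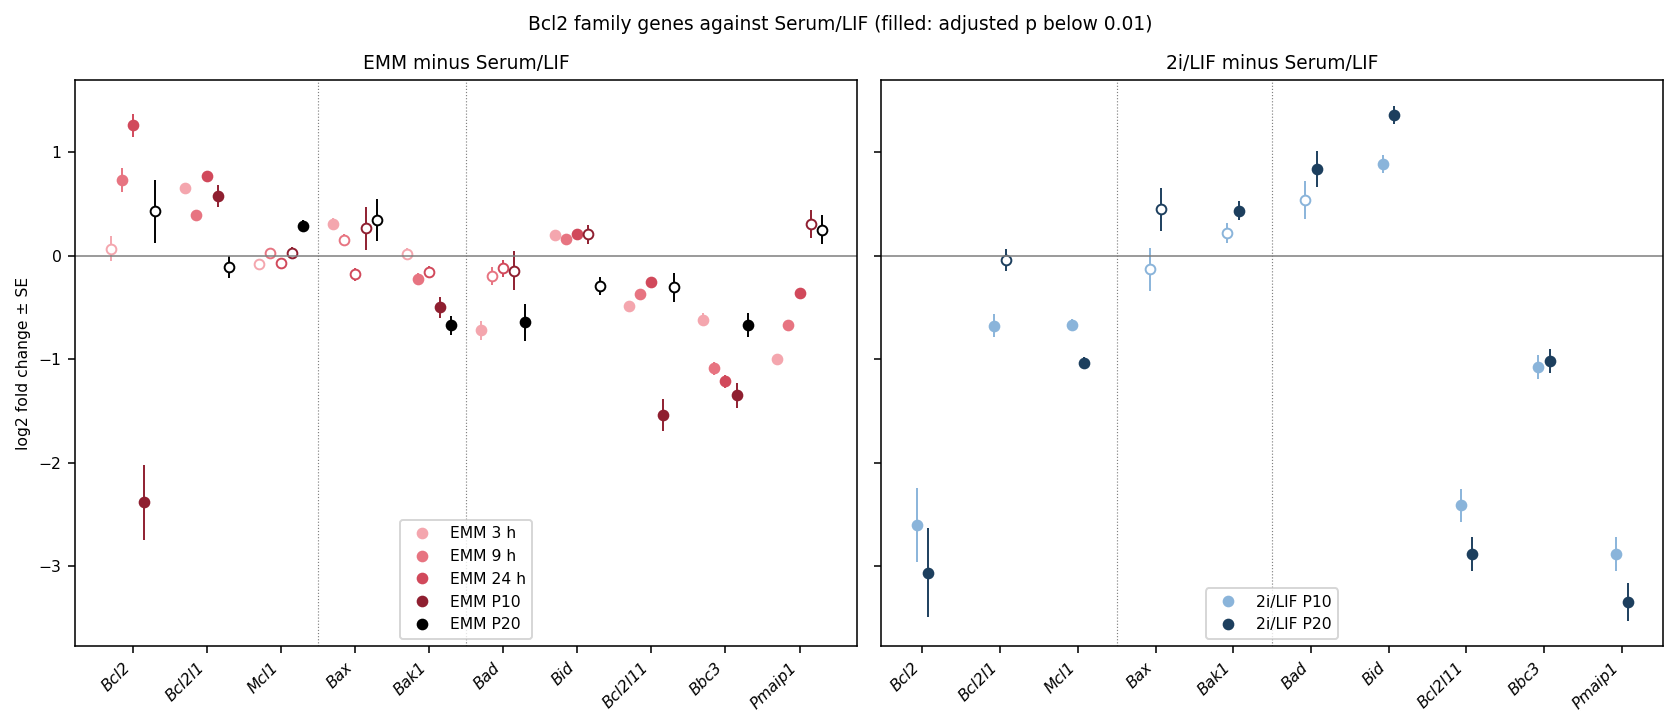
Log2 fold change ± SE of each member in EMM (left; 3 h, 9 h, 24 h, P10 and P20) and 2i/LIF (right; P10 and P20), each against its own Serum/LIF libraries; filled points have an adjusted p under 0.01, and dotted lines part anti-death, effector and BH3-only genes. Bbc3 lies below 0 at all 5 EMM points, and Bcl2 is at 1.26 at 24 h and -2.38 at P10.

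Passage itself was compared within each medium. In EMM, from P10 to P20, Bcl2 (1.90 ± 0.36, adjusted p = 4.78e-04), Bcl2l11 (1.28 ± 0.15, adjusted p = 4.87e-06) and Mcl1 (0.23 ± 0.06, adjusted p = 0.00492) rose, and Bcl2l1 (-1.07 ± 0.11, adjusted p = 6.36e-07) and Bid (-0.63 ± 0.09, adjusted p = 2.71e-05) fell. These 3 and 2 members compare with 13.3% and 11.9% of all genes. The Mcl1 call was lost when any 1 of the 6 libraries was left out (0.22 to 0.26, adjusted p from 0.0102 to 0.0243), with no filter (0.28) and when only these groups were fitted (0.21). Pmaip1 was called lower at P20 with no filter (-0.43), by DESeq2 (-0.48) and when only these groups were fitted (-0.49). It was also called without P10 EMM replicate 3 and P20 2i/LIF replicate 1 (-0.50), a choice made after seeing the data.

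In 2i/LIF, Bak1 (0.47 ± 0.09, adjusted p = 6.83e-04) and Bid (0.33 ± 0.09, adjusted p = 0.00475) rose with passage and Mcl1 (-0.39 ± 0.06, adjusted p = 5.87e-05) and Pmaip1 (-0.88 ± 0.21, adjusted p = 0.00267) fell, against 13.1% and 15.2% of all genes. The Bid call was lost without replicate 2 or 3 of P10 or replicate 1 or 2 of P20 (0.27 to 0.33, adjusted p up to 0.0291). The Pmaip1 call was lost without P10 replicate 1 or P20 replicate 2 or 3 (-0.78 to -0.71, adjusted p up to 0.0280). Bad passed without P10 replicate 1 (0.76, adjusted p = 0.00208), with no filter (0.60) and by DESeq2 (0.58). All 4 calls were lost when only these groups were fitted (adjusted p from 0.0122 to 0.102). Median log2 fold change over the other tested genes of chromosome 6 was 0.18 in this comparison.

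In Serum/LIF, 0 members were called by edgeR on the filtered genes, against 3.16% of all genes higher and 2.85% lower. At an unadjusted p under 0.05 there were 5, and the Wald test of DESeq2 called 1, Bcl2l1 (-0.40). Fitting only the groups compared gave 3 members in Serum/LIF and 0 in 2i/LIF, and no filter gave 2 and 5, so the order of these media is not settled. Values from edgeR were -0.91 ± 0.31 for Bcl2, -0.38 ± 0.11 for Bcl2l1, -0.42 ± 0.14 for Pmaip1 and -0.34 ± 0.11 for Bbc3.

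Pro-death and anti-death members were also set against each other inside each library, as the log2 ratio of their normalized counts, a description with no test. The ratio of Bax to Bcl2l1 was 1.53 ± 0.12 (SD, n = 3) in Serum/LIF of the time course and 0.59 ± 0.09 at EMM 24 h. In the passage experiment it was 1.99 ± 0.11 in Serum/LIF, 1.65 ± 0.18 in EMM and 2.51 ± 0.19 in 2i/LIF at P10. At P20 the order was not kept, with 2.01 ± 0.09 in Serum/LIF, 2.47 ± 0.06 in EMM and 2.44 ± 0.36 in 2i/LIF. The pair of Bim and Bcl-xL spread further: Bcl2l11 to Bcl2l1 was -0.23 ± 0.12 in Serum/LIF and -1.25 ± 0.03 at EMM 24 h.

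At P10 the Bcl2l11 to Bcl2l1 ratio was -0.39 ± 0.22 in Serum/LIF, -2.52 ± 0.38 in EMM and -2.12 ± 0.42 in 2i/LIF. At P20 it was 0.05 ± 0.18 in Serum/LIF, -0.15 ± 0.08 in EMM and -2.90 ± 0.59 in 2i/LIF, so EMM was near 2i/LIF at P10 and near Serum/LIF at P20. Bak1 to Mcl1, the pore former and a guardian known to hold it, was -3.81 ± 0.15 in P10 EMM and -3.96 ± 0.02 in P20 EMM, under Serum/LIF at -3.27 ± 0.20 and -3.00 ± 0.07. In 2i/LIF the same ratio was higher, at -2.38 ± 0.18 and -1.53 ± 0.19. Pmaip1 to Mcl1, the sensor and the guardian it neutralises, was -6.22 ± 0.37 and -6.65 ± 0.54 in 2i/LIF against -4.02 ± 0.24 and -4.42 ± 0.12 in Serum/LIF. In EMM it was -3.74 ± 0.11 at P10 and -4.45 ± 0.10 at P20.

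The ratio of Bbc3 to Mcl1 was -3.36 ± 0.01 in Serum/LIF of the time course, and EMM 24 h differed from it by -1.14. In the passage experiment EMM stood at -5.14 ± 0.07 and -5.03 ± 0.07, below Serum/LIF at -3.76 ± 0.19 and -4.09 ± 0.23. EMM libraries were the lowest of the 3 media for this pair at both passages.

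The ratio of Bax to Bcl2 was 6.43 ± 0.12 in Serum/LIF of the time course, 6.68 ± 0.05 at 3 h, 5.86 ± 0.21 at 9 h and 4.995 ± 0.098 at 24 h. At P10 it was 6.11 ± 0.36 in Serum/LIF, 8.87 ± 0.91 in EMM and 8.66 ± 0.76 in 2i/LIF. In P10 EMM, this pair and Pmaip1 to Mcl1 thus lay above Serum/LIF. Bax to Bcl2l1, Bak1 to Mcl1, Bcl2l11 to Bcl2l1 and Bbc3 to Mcl1 lay below it. At P20 the ratio of Bax to Bcl2 was 6.65 ± 0.24 in Serum/LIF, 6.56 ± 0.08 in EMM and 10.4 ± 1.03 in 2i/LIF. The high ratios rest on the few Bcl2 reads of these groups, and adding 5 counts to each gene lowered the differences from Serum/LIF from 2.75 to 2.03 in P10 EMM, from 2.55 to 1.85 in P10 2i/LIF and from 3.78 to 2.28 in P20 2i/LIF.

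**Figure D4:**
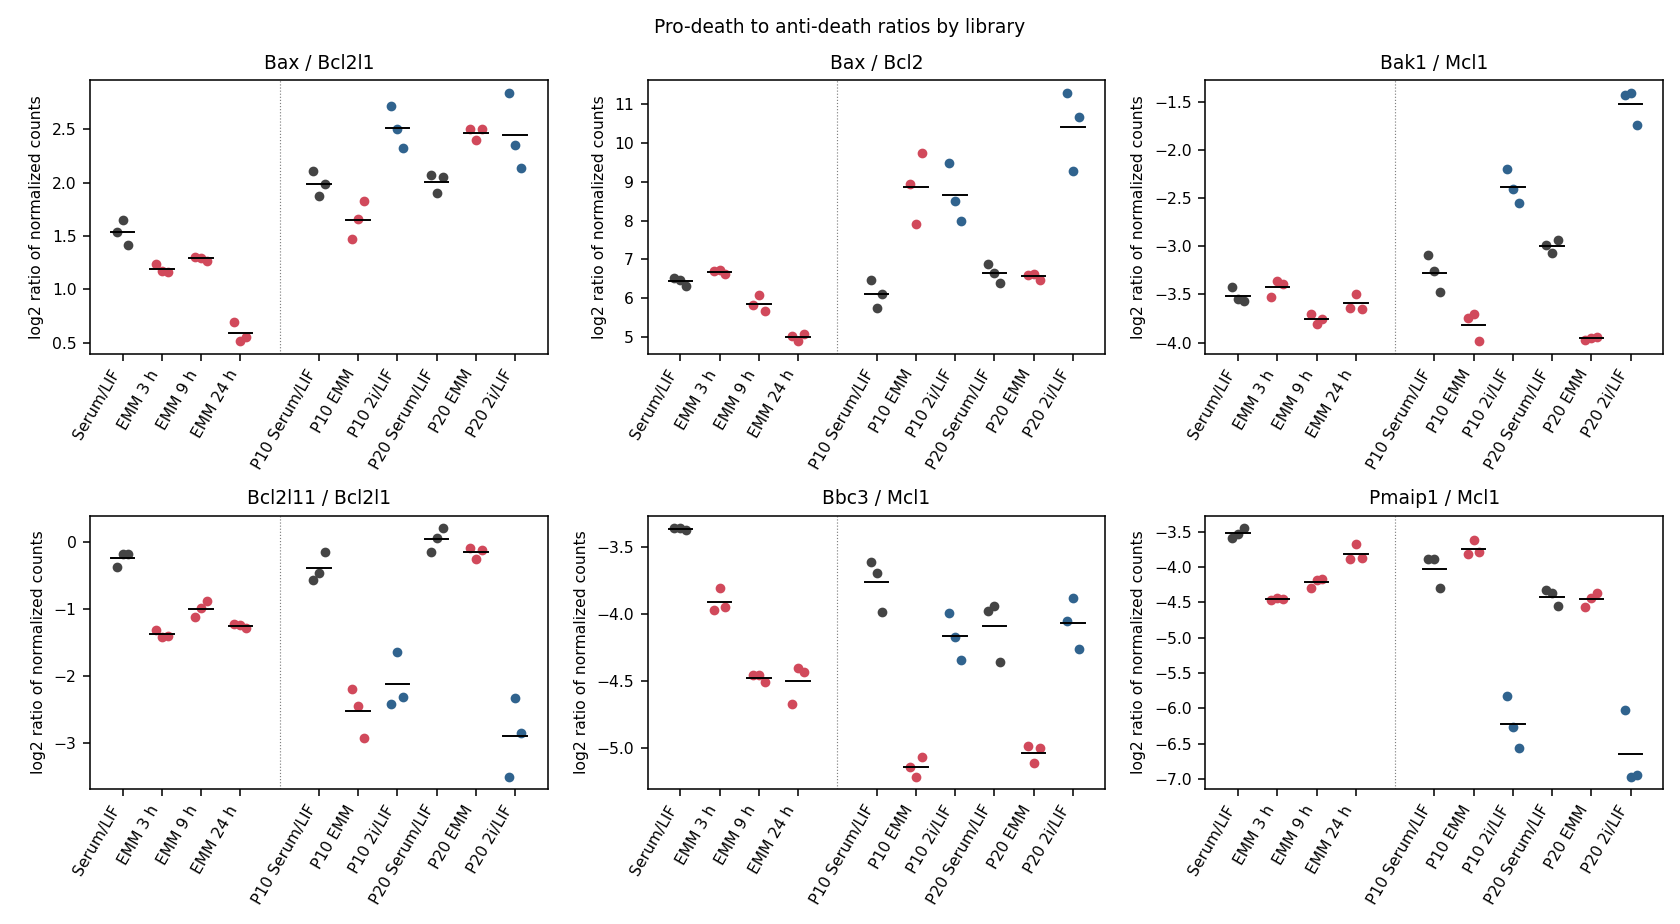
Log2 ratios of normalized counts of a pro-death to an anti-death member in each of 30 libraries; points are libraries, bars group means, and the dotted line parts the time course (left) from the passage experiment (right), whose levels are not to be compared. Bbc3 to Mcl1 is lowest in EMM at both passages, and Bak1 to Mcl1 is highest in 2i/LIF.

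Other genes of the pathway were taken from 6 lists. Of 15 further Bcl2 family genes, 10 were tested in each experiment, and the other 5, among them the 3 Bcl2a1 genes listed at 0 counts in every library, did not pass the filter. At EMM 24 h, 2 of these 10 were higher and 5 lower, against 21.8% and 22.2% of all genes, with a median log2 fold change of -0.37 against 8.9e-05 over all genes. Bcl2l14 fell most there (-1.76 ± 0.18), and Hrk, a BH3-only gene, rose most (0.48 ± 0.11). Against 2i/LIF, EMM had 5 of the 10 higher and 3 lower at each passage, against 22.9% and 22.2% of all genes at P10 and 25.7% and 22.9% at P20, with medians of 0.54 at P10 and 0.57 at P20. Bnip3, a mitophagy receptor, was higher in P20 EMM than in P20 2i/LIF (3.66 ± 0.26) and than in P20 Serum/LIF (1.05 ± 0.23). In the time course its normalized counts were 1123 ± 103 (SD, n = 3) in Serum/LIF, 559 ± 67.1 at 3 h, 1447 ± 219 at 9 h and 747 ± 66.4 at 24 h. The BH3-only gene Bik was higher in P10 EMM than in P10 2i/LIF (2.98 ± 0.40). Against 2i/LIF, Bcl2l14 was lower in EMM (-3.56 ± 0.25 at P10, -3.92 ± 0.22 at P20), and Bok, an effector-like member, was lower in P10 EMM than in P10 Serum/LIF (-1.49 ± 0.21).

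The list of p53 and its targets (18 genes, Bax, Bbc3 and Pmaip1 not counted) had 4 higher and 4 lower at 3 h (median 0.04), against 16.3% and 18.2% of all genes. At 9 h, 1 was higher and 10 lower (median -0.22), against 18.5% and 19.7% of all genes, and at 24 h again 1 and 10 (median -0.22), against 21.8% and 22.2%. At P10, EMM had 2 higher and 10 lower than Serum/LIF (median -0.32), against 18.7% of all genes each way, and 1 higher and 13 lower than 2i/LIF (median -0.73), against 22.9% and 22.2%. At P20 the counts were 1 and 9 against Serum/LIF (median -0.34), where all genes gave 13.6% and 12.5%, and 1 and 8 against 2i/LIF (median -0.33), where they gave 25.7% and 22.9%. Zmat3 fell most at 24 h (-0.71 ± 0.05). Cdkn1a, the p21 cell cycle inhibitor, had, in EMM against 2i/LIF, the deepest fall of the list at both passages (log2 fold changes of -3.58 and -2.62 at P10 and P20, SE 0.09 each). Perp was higher in EMM at 24 h (0.21 ± 0.04) and against 2i/LIF at both passages (2.20 ± 0.17 and 2.15 ± 0.17). Against Serum/LIF its levels in EMM lay below, at 287 ± 21.4 (SD, n = 3) beside 1034 ± 81.3 normalized counts at P10 and at 220 ± 16.8 beside 660 ± 21.4 at P20. Ei24 was higher in EMM than in Serum/LIF at P10 (0.82 ± 0.10) and P20 (0.49 ± 0.10). Fas, a death receptor, had raw counts of 2, 1 and 0 in P10 EMM against 12, 10 and 12 in P10 Serum/LIF, a ratio of 0.111 with an exact 95% interval of 0.0217 to 0.351 that covers counting error only. In P20 EMM it had raw counts of 0, 3 and 3 against 4, 16 and 10.

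Downstream, the 10 genes of the apoptosome and of released mitochondrial factors had 1 higher and 3 lower at EMM 24 h, near the 21.8% and 22.2% of all genes. Xiap, the caspase inhibitor, rose most at 24 h (0.79 ± 0.06) and in P10 EMM (0.71 ± 0.11), and the largest falls were Endog at 24 h (-0.61 ± 0.12) and Apaf1, the apoptosome scaffold, in P10 EMM (-0.54 ± 0.12). At P20, 0 of the 10 were called between EMM and Serum/LIF with edgeR and 0 with DESeq2, against 13.6% of all genes higher and 12.5% lower with edgeR. Of the 10, 4 had an unadjusted p under 0.05, a cut for which the share of all genes is not given here. Against 2i/LIF at P20, 7 were lower in EMM, compared with 22.9% of all genes. In P10 EMM, Apaf1 was lower than in 2i/LIF (-1.23 ± 0.12) and Endog higher (1.31 ± 0.23). At P20 Endog was at 138 ± 13.3 in EMM and 184 ± 74.7 in 2i/LIF.

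Of 8 other transcription factors of BH3-only genes, 0 were higher and 2 lower at 24 h, against 21.8% and 22.2% of all genes, with Egr1 falling most (-0.82 ± 0.13). Egr1 was also lower in P10 EMM than in Serum/LIF (-0.48 ± 0.12), while at P20 it lay higher in EMM, at 668 ± 29.3 against 393 ± 33.7 normalized counts (SD, n = 3). Atf4, the stress response factor, was lower in P20 EMM than in Serum/LIF (-0.91 ± 0.06) and 2i/LIF (-1.36 ± 0.06), and at P10 it was at 2795 ± 158 in EMM, 3161 ± 144 in Serum/LIF and 2352 ± 111 in 2i/LIF. Trp73, a relative of p53, was higher in P20 EMM than in Serum/LIF (1.65 ± 0.16), against 84.9 ± 12.4 in EMM and 85.9 ± 14.6 in Serum/LIF at P10. Chchd2 was higher in P10 EMM than in 2i/LIF (0.87 ± 0.16), and at P20 it was at 3557 ± 144 in EMM and 4424 ± 1290 in 2i/LIF.

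Among 10 genes that turn over or phosphorylate the members, 3 were higher and 0 lower at 24 h, against 21.8% and 22.2% of all genes, with Gsk3b, a kinase that marks Mcl1, rising most (0.22 ± 0.05). In P10 EMM against Serum/LIF, Usp9x, which stabilises Mcl1, was higher (0.68 ± 0.11) and Akt1, a kinase of Bad, lower (-0.71 ± 0.11). Akt1 lay the other way at 24 h, at 2184 ± 97.6 in EMM against 1947 ± 40.6 in Serum/LIF. At P20 it lay lower in EMM, at 747 ± 24.5 against 898 ± 62.8. Against 2i/LIF, Ywhae was higher (0.44 ± 0.10) and Gsk3b lower (-0.81 ± 0.09) at P10, and Mapk8 was higher (0.86 ± 0.10) and Akt2 lower (-0.74 ± 0.11) at P20. Mapk8 lay the other way at P10, at 601 ± 76.1 in EMM and 828 ± 83.2 in 2i/LIF, and Ywhae at P20, at 19839 ± 690 in EMM and 21219 ± 2613 in 2i/LIF. Of 5 partners at the mitochondrial membrane, Bag3, a co-chaperone, was lower in EMM at 24 h (-0.32 ± 0.06), in P10 EMM against Serum/LIF (-0.74 ± 0.11) and against 2i/LIF (-2.06 ± 0.11 at P10, -1.07 ± 0.10 at P20). Bcap31 was higher in P10 EMM than in Serum/LIF (0.47 ± 0.11) and Vdac1 higher than in 2i/LIF (0.25 ± 0.07). At P20 both lay the other way, Bcap31 at 1189 ± 40.7 in EMM and 1367 ± 64.8 in Serum/LIF, and Vdac1 at 10570 ± 367 in EMM and 11906 ± 845 in 2i/LIF.

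The genes most like the 3 most variable members were ranked by Pearson correlation of log2 CPM, centred within each experiment, over 30 libraries and 14652 genes. For Pmaip1 they were Mkrn1 (r = 0.981), Micu2 (0.970) and Rtn1 (0.970). For Bcl2 they were Clcn5 (0.951), Peg3 (0.941) and Mfhas1 (0.929). For Bcl2l11 they were Mrc2 (0.985), Rims4 (0.975) and Esrp1 (0.975). Within the time course alone the values were lower for most, at 0.330 for Micu2, 0.595 for Rims4, 0.467 for Esrp1 and 0.799 to 0.930 for the other 6, against 0.930 to 0.988 over the passage experiment. Libraries of a group share their medium, so these values describe a shared pattern over groups and are not a test.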

How the data were processed

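Libraries of the time course (RNeasy extraction, NEBNext Ultra 2 kit) and of the passage experiment (NEBNext directional kit) were processed separately by the authors. For the time course the authors deposited raw counts of whole reads per gene, and the labels name STAR, featureCounts and DESeq2. For the passage experiment they deposited estimated counts, of which 9.98% were not whole, and the labels name STAR, Salmon and DESeq2. Both used mm10. Whether counting used strand is not given in the sources used here. Each table was analysed on its own.

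Estimated counts were rounded before fitting, although counts had been planned for. Genes kept by filterByExpr were fitted in edgeR 4.0.16 (R 4.3.3) with TMM scaling, 1 quasi-likelihood model per table with no covariate, and 14 comparisons and 3 interactions were tested at an adjusted p under 0.01. DESeq2 1.42.0, other scalings and filters, replicate blocks, the compared groups alone and fits without 1 library were alternatives. The SE was the size of the log2 fold change divided by the root of the F statistic. On simulated counts with 200 genes changed by 1 on the log2 scale, the fit recovered 200 for 24 h against Serum/LIF and 198 for EMM against Serum/LIF at P10, with 3 and 2 false calls among 15838 and 15336 genes. The simulation changed only genes with higher counts and gave all genes of a table the same spread. It thus does not speak for scarce members such as Bcl2, for variable ones such as Bax, or for smaller changes. Exon lengths came from GENCODE and promoters from RefSeq.

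The members and the lists were chosen with earlier results of these data known. Genes outside the family were named where they rose or fell most in their list in 1 of 5 comparisons of EMM, or correlated best with 1 of the 3 most variable members, and 1 result that this rule selects is not reported here. Replicates are described as independent experiments in the study's methods. Depth limits the precision of scarce transcripts.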

Additional observations from a re-analysis of the deposited data

Results flagged for a closer look

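Differences between groups in the effect of a medium, tested as interaction terms in the edgeR fit, passed the threshold for 14 combinations of member and contrast. The effect of EMM against Serum/LIF at P20 minus that at P10 was 2.81 for Bcl2, -0.69 for Bcl2l1, -0.50 for Bid, 1.23 for Bcl2l11 and 0.68 for Bbc3 on the log2 scale. For EMM against 2i/LIF, the same difference was 3.27 for Bcl2, -1.32 for Bcl2l1, 0.63 for Mcl1, -0.97 for Bid, 1.70 for Bcl2l11 and 0.62 for Bbc3. For 2i/LIF against Serum/LIF it was 0.63 for Bcl2l1, -0.37 for Mcl1 and 0.47 for Bid. Bcl2l1 and Bid took part in all 3 contrasts, which share libraries with each other.

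The values of Bcl2 rest on raw counts between 1 and 14 in P10 EMM and in 2i/LIF at both passages. Without P10 EMM replicate 3 and P20 2i/LIF replicate 1, a choice made after seeing the data, 4 members were called for EMM against Serum/LIF, 5 for EMM against 2i/LIF and 2 for 2i/LIF against Serum/LIF. Calls lost there were those of Bid in the first and in the third contrast and of Bbc3 in the second. In the second contrast the Bbc3 call was also lost without any 1 of 8 of the 12 libraries, replicates 1 and 2 of P10 2i/LIF and P10 EMM and replicates 1 and 3 of P20 2i/LIF and P20 EMM (0.53 to 0.63). In the third, leaving out single libraries ended the call of Bid in 8 cases (0.41 to 0.48), of Bcl2l1 in 6 (0.54 to 0.62) and of Mcl1 in 2 (-0.35 in both), with P10 2i/LIF replicate 2 and P10 Serum/LIF replicate 2 ending all 3. There the call of Mcl1 was also lost with no filter (-0.31) and with only the groups compared (-0.37), and that of Bid with library totals alone (0.40) and with only the groups compared (0.47).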

How the results depend on the processing

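Over 2516 refits of single members, 2343 kept the direction and the side of the threshold, 95 lost the call, 41 gained one and 37 turned in sign, none of the last for a called difference. Bcl2 was lost from the passage experiment under a minimum of 10 counts in every library. Requiring a log2 fold change above 1 in size besides the adjusted p left 1 member at 3 h, 1 at 9 h and 2 at 24 h, 0 from 3 h to 9 h and 0 from 9 h to 24 h. In the passage experiment it left 3, 2 and 4 members at P10 for EMM against Serum/LIF, EMM against 2i/LIF and 2i/LIF against Serum/LIF, 0, 7 and 6 for the same at P20, 3 for P20 against P10 in EMM and 0 in 2i/LIF and in Serum/LIF, and 2, 3 and 0 for the interactions in the order of EMM with Serum/LIF, EMM with 2i/LIF and 2i/LIF with Serum/LIF. Fitting only the groups compared gave 0 members for P20 against P10 in 2i/LIF, 3 in Serum/LIF and 1 for the third interaction. For P20 against P10 in Serum/LIF, 2 members were called with no filter, 1 by DESeq2 and 3 at an adjusted p under 0.05. Shares of all genes at the fold threshold and in these refits are not given here. The counts therefore show only how the list depends on the settings, not whether its members are called more often than other genes.

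Leaving out 1 library at a time gave 7 members at 3 h, 5 to 7 at 9 h, 6 to 8 at 24 h, 5 to 6 from 3 h to 9 h and 4 from 9 h to 24 h. For the media at P10 it gave 5 for EMM against Serum/LIF, 6 to 7 for EMM against 2i/LIF and 7 to 8 for 2i/LIF against Serum/LIF, and at P20 it gave 3 to 4, 7 to 8 and 8. For P20 against P10 it gave 4 to 5 in EMM, 2 to 4 in 2i/LIF and 0 in Serum/LIF, and for the interactions 3 to 4, 5 to 6 and 0 to 3.

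Signs turned for differences that were not called. With library totals as the only scaling these were Bcl2 (-0.0030) and Bak1 (-0.057) at 3 h, Mcl1 (-0.0056) at 9 h, Bid (0.0060) from 3 h to 9 h, Mcl1 (-0.074) in P10 EMM against Serum/LIF, Mcl1 (0.045) from P10 to P20 in Serum/LIF, and Bbc3 (-0.0084) in the third interaction. Mcl1 in P10 EMM against Serum/LIF was -0.0044 with DESeq2 size factors, -0.0047 by DESeq2, -0.046 with no filter and -0.049 under the minimum of 10 counts, and Pmaip1 in the first interaction was 0.024 with no filter. With 1 library left out, or both that stood apart (a choice made after seeing the data), the ranges that crossed 0 were -0.041 to 0.067 for Bak1 at 3 h, -0.0080 to 0.065 for Mcl1 at 9 h, -0.013 to 0.13 for Bad from 9 h to 24 h, -0.36 to 0.56 for Bcl2 in P10 EMM against 2i/LIF, -0.16 to 0.023 for Bcl2l1 and -0.26 to 0.25 for Bax in P20 EMM against 2i/LIF, and -0.13 to 0.048 for Bcl2l1 in P20 2i/LIF against Serum/LIF. From P10 to P20 they were -0.0041 to 0.13 for Bak1 in EMM, -0.14 to 0.43 for Bax in 2i/LIF, and -0.057 to 0.028 for Mcl1 and -0.031 to 0.14 for Bcl2l11 in Serum/LIF. Among interactions they were -0.082 to 0.27 for Bax and -0.11 to 0.016 for Pmaip1 in the first, -0.71 to 0.043 for Bax in the second and -0.046 to 0.15 for Bbc3 in the third. The cause of these shifts was not tested.

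Same-numbered replicates did not deviate together, so no pairing was assumed. Correlations of their deviations from group means had a median of 0.0067 in the time course and 0.0033 in the passage experiment. A fit with the replicate number as a block called 7 members at 3 h, 7 at 9 h and 7 at 24 h, adding Bax at 24 h, and 5 for EMM against Serum/LIF at P20, adding Bid. In the other comparisons the block left the number of calls as it was. With the numbers of the sample descriptions as the block, 7, 7 and 6 members were called at the 3 times, Bak1 at 9 h losing its call and Bax gaining one. Adding 5 counts before taking the log2 ratio of Bax to Bcl2 moved its difference from Serum/LIF to 2.03 in P10 EMM, 1.85 in P10 2i/LIF and 2.28 in P20 2i/LIF. Few reads limit Bcl2 in the passage experiment.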

Other observations

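Egr1 and Cdkn1a, both listed among the regulators and p53 targets above, set the 2i/LIF groups apart from each other and from the other media. Normalized counts of Egr1, an immediate early gene known to respond to ERK, were 3691 ± 294 (SD, n = 3) in P10 2i/LIF and 7.89 ± 5.12 in P20 2i/LIF, against 1514 ± 66.4 and 393 ± 33.7 in Serum/LIF and 1080 ± 211 and 668 ± 29.3 in EMM. Cdkn1a stood at 5073 ± 296 in P10 2i/LIF and 2694 ± 185 in P20 2i/LIF, against 870 ± 67.3 and 938 ± 67.9 in Serum/LIF and 424 ± 39.0 and 440 ± 3.84 in EMM.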
